A study of Homo sapiens with 6 samples.

Results

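The extracellular adenosine pathway was examined in MM.1S, a human multiple myeloma line, through 10 genes chosen by symbol. They are the surface enzymes ENTPD1, ENPP1 and NT5E, the receptors ADORA2A and ADORA2B, the enzymes ADA, PNP and ADK, the surface peptidase DPP4 and the nucleoside transporter SLC29A1. Each of the 10 symbols stood on 1 identifier, out of 60671 genes in the table. One group was a clone of MM.1S with CRISPR/Cas9 knockout of CD38 (CD38 KO, E9 in the library names), and the other was the unedited MM.1S line (WT), with 3 libraries each. Both lines carried green fluorescent protein and a click beetle red luciferase delivered by lentivirus. Live cells were sorted on CD38 staining, CD38-negative ones from the clone and CD38-positive ones from WT. The knockout is 1 clone, and the groups also differ in the sort. A property of that clone, the sort and an effect of losing CD38 therefore cannot be told apart.

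Extracellular adenosine is made at the cell surface from nucleotides. In the usual route CD39, encoded by ENTPD1, splits ATP and ADP to AMP, and CD73, encoded by NT5E, turns AMP into adenosine. In a second route CD38 splits NAD to ADP-ribose, ENPP1 (PC-1, CD203a) turns ADP-ribose into AMP, and CD73 again forms adenosine. Adenosine then signals through its receptors, of which the products of ADORA2A and ADORA2B raise cAMP and dampen T and NK cells, until it is deaminated by ADA or carried into the cell and phosphorylated by ADK. In multiple myeloma this chain of surface enzymes has been studied in the bone marrow niche.

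The 250 bases upstream of the RefSeq start are shown for the genes that follow CD38 in the second route and for ADA, because ENPP1 fell in CD38 KO while NT5E and ADA rose. The sequences are RefSeq's, on build GRCh38.p14, written 5′ to 3′ on the gene's strand, and capitals mark a GC box (GGGCGG, either strand, overlaps included) or the CRE core TGACG (either strand). The windows are chr6:131807770-131808019 for ENPP1 on the plus strand, chr6:85449833-85450082 for NT5E on the plus strand and chr20:44651700-44651949 for ADA on the minus strand.
ENPP1: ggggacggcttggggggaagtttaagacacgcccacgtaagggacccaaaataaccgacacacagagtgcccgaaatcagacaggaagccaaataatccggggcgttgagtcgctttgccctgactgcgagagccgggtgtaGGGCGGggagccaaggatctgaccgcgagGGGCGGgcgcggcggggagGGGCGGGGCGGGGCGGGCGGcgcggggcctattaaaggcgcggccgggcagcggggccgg
NT5E: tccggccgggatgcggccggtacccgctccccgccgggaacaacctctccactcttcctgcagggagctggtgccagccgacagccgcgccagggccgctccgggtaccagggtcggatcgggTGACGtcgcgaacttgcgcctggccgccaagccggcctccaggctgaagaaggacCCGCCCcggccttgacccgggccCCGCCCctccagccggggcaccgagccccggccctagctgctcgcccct
ADA: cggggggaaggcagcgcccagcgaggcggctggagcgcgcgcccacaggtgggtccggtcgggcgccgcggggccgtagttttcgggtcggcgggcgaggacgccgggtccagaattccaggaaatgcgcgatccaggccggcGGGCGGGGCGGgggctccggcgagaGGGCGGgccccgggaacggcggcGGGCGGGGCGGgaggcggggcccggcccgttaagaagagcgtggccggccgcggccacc
The window of ENPP1 held 6 GC boxes, that of NT5E 2 and that of ADA 5, and 42.6% of 35116 RefSeq windows of this length held at least 1. The NT5E window held 1 CRE core and the other 2 windows none, against 21.2% of all windows with at least 1. The core was not particular to NT5E. It stood in 6 of the 15 windows of members, those of 5 members: NT5E, ENTPD1, DPP4, ADORA2B and ADK, which fell. No window of a member held the full CRE TGACGTCA, which 1.65% of all windows held. Of the 15 windows of the 9 members with a RefSeq window, 10 had a GC box, the measure to set beside 42.6%. By member, 8 of the 9 had the box in at least 1 of their windows, all but ENTPD1. It stood in the windows of ENPP1, which fell, and of NT5E and ADA, which rose.

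Total counts ranged from 61515519 to 65709440 in the CD38 KO libraries and from 63606445 to 72335496 in the WT libraries. Levels are in CPM, counts scaled to a library size corrected by TMM factors, and a floor of 3 counts stood at 0.0405 to 0.0504 CPM. As a check of the labels, CD38 itself had 51, 80 and 48 counts in CD38 KO and 3148, 2678 and 2545 in WT. All 7 plasma cell markers were at 1 CPM or more in every library, and their sum was 8039 to 8121 CPM in CD38 KO and 5931 to 5969 in WT. Of these markers JCHAIN, XBP1, PRDM1, IRF4 and TNFRSF17 were called higher in CD38 KO at an edgeR adjusted p under 0.05, SLAMF7 was called lower and SDC1 was not called. In no library did any of 4 B cell markers pass 0.0807 CPM. The summed T and NK cell markers were at 5.13 to 5.86 CPM in CD38 KO and 1.78 to 2.31 in WT. Of these 5 markers CD3E averaged 4.83 CPM in CD38 KO and 0.979 in WT, and CD247 averaged 0.542 in CD38 KO and 0.887 in WT. CD8A averaged 0.0646 CPM in CD38 KO and 0.0979 in WT, CD3D 0.011 in CD38 KO and 0.0095 in WT, and NKG7 had no counts in CD38 KO and averaged 0.0541 CPM in WT. Summed monocyte markers were at 0.759 to 1.24 CPM in CD38 KO and 0.670 to 1.12 in WT, and summed stromal and epithelial markers at 6.39 to 8.20 CPM in CD38 KO and 5.40 to 6.60 in WT. The share of counts from mitochondrially encoded genes was 6.83% to 7.30% in CD38 KO and 2.63% to 2.71% in WT. A fit without mitochondrially encoded genes called 6 members, 4 higher and 2 lower, as did the fit with them. Otherwise the part of these shifts in the results below was not tested.

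Among the 10 members, ADA, NT5E, PNP and ENTPD1 rose in CD38 KO, ENPP1 and ADK fell, and SLC29A1, ADORA2A, ADORA2B and DPP4 did not pass the test. All 10 passed the filter on low counts, DPP4 only through the CD38 KO libraries, where it was higher. In these bulk libraries fewer expressing cells and less RNA per cell cannot be told apart. A gene was called when the quasi-likelihood test of edgeR gave a Benjamini-Hochberg adjusted p under 0.05 over all 20120 genes tested. By that rule 44.4% of all tested genes were called, 22.8% higher and 21.6% lower, so 4 members higher and 2 lower are not read as particular to the pathway. No member was called with a change of 2-fold or more, which 11.3% of all tested genes were. The median log2 fold change of the members was 0.34, and that of all tested genes 0.00021. For 9 members no CPM value of one group lay within the range of the other, as for 52.5% of all tested genes. DPP4 is among these 9 and enters the median.

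**Figure D1:**
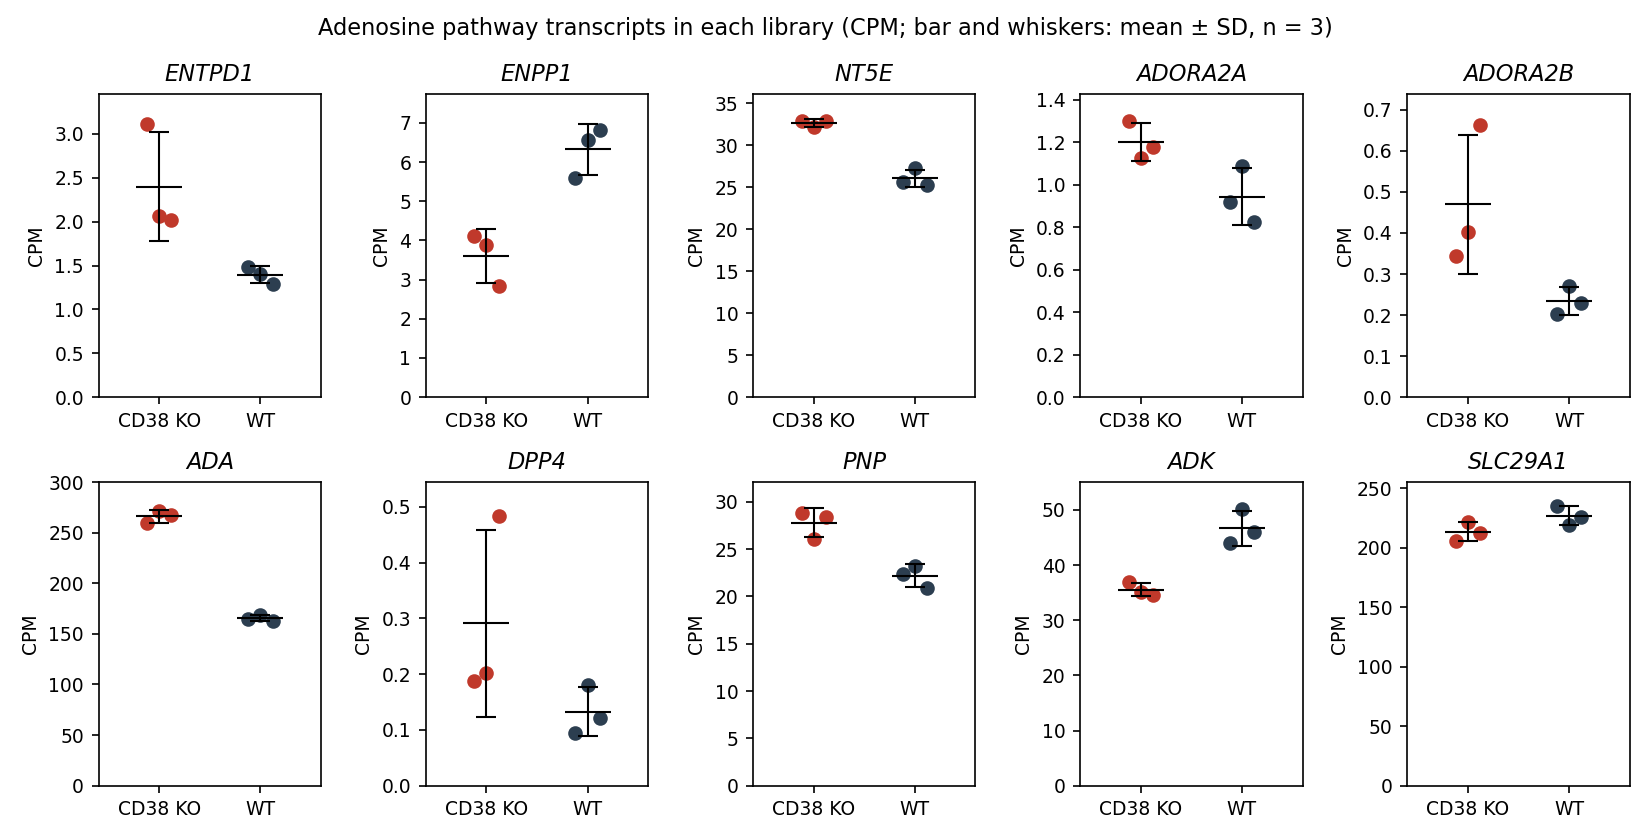
Level of each member in CPM (vertical axes, each from 0) in the 3 CD38 KO libraries (red, left) and the 3 WT libraries (dark, right), with bars for the mean and whiskers for the SD. ADA, NT5E, PNP and ENTPD1 were higher in every CD38 KO library, ENPP1 and ADK were lower in every one, and only the points of SLC29A1 overlap between the groups.

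ENTPD1 encodes CD39, which starts the usual route by removing phosphates from extracellular ATP and ADP. It was at 3.11, 2.07 and 2.02 CPM in the CD38 KO libraries, against 1.49, 1.40 and 1.29 CPM in the WT libraries. Every CD38 KO library was above every WT library, and CD38 KO replicate 1 stood above the other two. ENTPD1 (ENSG00000138185; GENCODE 29 on GRCh38, chromosome 10, 95711779 to 95869695, plus strand) averaged 2.40 ± 0.618 CPM in CD38 KO and 1.39 ± 0.0963 CPM in WT (SD, n = 3 each). Its log2 fold change was 0.78 ± 0.218 (SE; edgeR adjusted p = 0.00579), and 0.55 without CD38 KO replicate 1 (edgeR adjusted p = 0.0450). Its antisense gene ENTPD1-AS1, which shares 454 exonic bases with it, had 196, 116 and 181 counts in CD38 KO and 282, 206 and 197 in WT, against 447 ENTPD1 counts in all CD38 KO and 288 in all WT libraries. Reads of the pair cannot be told apart if strand was ignored in counting, which is not given in the sources used here.

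ENPP1, the pyrophosphatase that turns ADP-ribose or ATP into AMP and so links CD38 to CD73, was lower in the clone. It was at 4.11, 3.88 and 2.83 CPM in the CD38 KO libraries, against 5.59, 6.55 and 6.82 CPM in the WT libraries. The groups did not overlap, and the lowest value was that of CD38 KO replicate 3. ENPP1 (ENSG00000197594; chromosome 6, 131808016 to 131895155, plus strand) averaged 3.61 ± 0.687 CPM in CD38 KO and 6.32 ± 0.645 CPM in WT (SD, n = 3 each), so CD38 KO stood at 57.1% of the WT level. The log2 fold change was -0.81 ± 0.152 (SE, edgeR adjusted p = 0.000160). The 15 other tested genes within 2 Mb had a median log2 fold change of -0.069.

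NT5E encodes CD73, on which both routes converge. Its values were 32.9, 32.1 and 32.9 CPM in the CD38 KO libraries, against 25.6, 27.2 and 25.3 CPM in the WT libraries. The CD38 KO libraries lay close together and all above WT. NT5E (ENSG00000135318; chromosome 6, 85449584 to 85495791, plus strand) averaged 32.6 ± 0.440 CPM in CD38 KO and 26.1 ± 1.04 CPM in WT (SD, n = 3 each), a rise of 1.25-fold with a 95% interval of 1.14 to 1.38. The log2 fold change was 0.33 ± 0.0645 (SE; edgeR adjusted p = 0.000280).

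The transcripts of the receptors were scarce. ADORA2A encodes the high-affinity receptor that couples to the stimulatory G protein. It was at 1.30, 1.13 and 1.18 CPM in the CD38 KO libraries, against 0.919, 1.09 and 0.822 CPM in the WT libraries. The groups did not overlap, though CD38 KO replicate 2 and WT replicate 2 were close. The log2 fold change of ADORA2A (ENSG00000128271; chromosome 22, 24417879 to 24442360, plus strand) was 0.35 ± 0.253 (SE; edgeR adjusted p = 0.286), with a fold of 1.27 and a 95% interval of 0.884 to 1.84. The readthrough gene SPECC1L-ADORA2A shares 2380 exonic bases with it and had 0, 2 and 0 counts in CD38 KO and 2, 0 and 0 in WT. ADORA2A-AS1 shares 285 and had 60, 32 and 51 counts in CD38 KO and 74, 40 and 48 in WT. ADORA2A itself had 83, 67 and 73 in CD38 KO and 68, 72 and 54 in WT, so its counts are uncertain.

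ADORA2B encodes the related receptor of lower affinity, which needs more adenosine. It was at 0.344, 0.403 and 0.662 CPM in the CD38 KO libraries, against 0.203, 0.272 and 0.228 CPM in the WT libraries. All CD38 KO values were above the WT values, and CD38 KO replicate 3 was the highest. These levels rest on 22, 24 and 41 counts in CD38 KO and 15, 18 and 15 in WT. The log2 fold change of ADORA2B (ENSG00000170425; chromosome 17, 15944917 to 15975746, plus strand) was 1.00 ± 0.438 (SE; edgeR adjusted p = 0.0710). It was 1.18 without CD38 KO replicate 1 (edgeR adjusted p = 0.0434) and 0.68 without CD38 KO replicate 3 (edgeR adjusted p = 0.328). Counting error alone gave a 95% interval of 1.40 to 2.93 around the ratio of the summed counts, 2.01.

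Of the enzymes that remove adenosine, ADA rose and ADK fell. ADA, adenosine deaminase, converts adenosine to inosine inside the cell and, bound to a surface partner, outside it. It was at 259.3, 271.5 and 267.5 CPM in the CD38 KO libraries, against 165.0, 168.8 and 162.8 CPM in the WT libraries. The gap between the groups was many times the range within either. ADA (ENSG00000196839; chromosome 20, 44619522 to 44652233, minus strand) averaged 266.1 ± 6.19 CPM in CD38 KO and 165.6 ± 3.04 CPM in WT (SD, n = 3 each). This was a rise of 1.61-fold with a 95% interval of 1.52 to 1.70 (edgeR adjusted p = 6.82e-12), and ADA had the lowest adjusted p of the members. The 50 other tested genes within 2 Mb of it had a median log2 fold change of 0.18, against 0.68 ± 0.0392 (SE) for ADA. Of them 20 were higher and 10 lower, beside 22.8% and 21.6% of all tested genes. Windows of other members leaned as well: that of ADORA2A had 23 of 72 genes higher and 6 lower, and that of DPP4 had 1 of 10 higher and 7 lower. The part of the neighbourhood in the ADA result was not tested. PKIG lies antisense to it, shares 46 exonic bases and had at most 367 counts in a library.

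DPP4 (CD26) is the surface peptidase to which ADA binds in humans. Its counts were 12, 12 and 30 in CD38 KO, or 0.188, 0.202 and 0.484 CPM, against 7, 12 and 8 in WT, or 0.0946, 0.181 and 0.122 CPM. CD38 KO replicate 3 held more than the other 2 CD38 KO libraries together. DPP4 passed the filter on low counts only through CD38 KO, the group where it was higher. The log2 fold change of DPP4 (ENSG00000197635; chromosome 2, 161992241 to 162074542, minus strand) was 1.13 ± 0.566 (SE; edgeR adjusted p = 0.115). Without CD38 KO replicate 3 it was 0.56 (edgeR adjusted p = 0.566). The depth does not allow a finer statement than the 95% interval of the fold, 0.966 to 4.97.

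PNP, purine nucleoside phosphorylase, acts after ADA and splits inosine to hypoxanthine. It was at 28.9, 26.1 and 28.4 CPM in the CD38 KO libraries, against 22.4, 23.3 and 20.9 CPM in the WT libraries. All CD38 KO values were higher than all WT values. PNP (ENSG00000198805; chromosome 14, 20468954 to 20477094, plus strand) rose 1.25-fold with a 95% interval of 1.13 to 1.39 (log2 fold change 0.33 ± 0.0725, SE, and edgeR adjusted p = 0.000889).

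ADK, adenosine kinase, returns adenosine to AMP inside the cell. It was at 36.9, 35.1 and 34.6 CPM in the CD38 KO libraries, against 43.98, 50.2 and 45.95 CPM in the WT libraries. All CD38 KO values lay below the lowest WT value. ADK (ENSG00000156110; chromosome 10, 74151185 to 74709303, plus strand) averaged 35.5 ± 1.20 CPM in CD38 KO and 46.7 ± 3.17 CPM in WT (SD, n = 3 each), and its log2 fold change of -0.39 had an SE of 0.0618 (edgeR adjusted p = 1.95e-05). The 57 other tested genes within 2 Mb had a median of -0.039.

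SLC29A1 encodes ENT1, the equilibrative carrier that lets adenosine cross the membrane in either direction. It was at 205.8, 221.7 and 212.7 CPM in the CD38 KO libraries, against 234.9, 218.9 and 226.2 CPM in the WT libraries. The groups overlapped, since CD38 KO replicate 2 was above WT replicate 2. The log2 fold change of SLC29A1 (ENSG00000112759; chromosome 6, 44219505 to 44234151, plus strand) was -0.087 ± 0.0419 (SE; edgeR adjusted p = 0.100), and the 95% interval of the fold was 0.886 to 1.00. It was called lower with library size alone as the scaling (log2 fold change -0.17, edgeR adjusted p = 0.00120), without CD38 KO replicate 2 (edgeR adjusted p = 0.0332) and without WT replicate 2 (edgeR adjusted p = 0.0450).

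**Figure D2:**
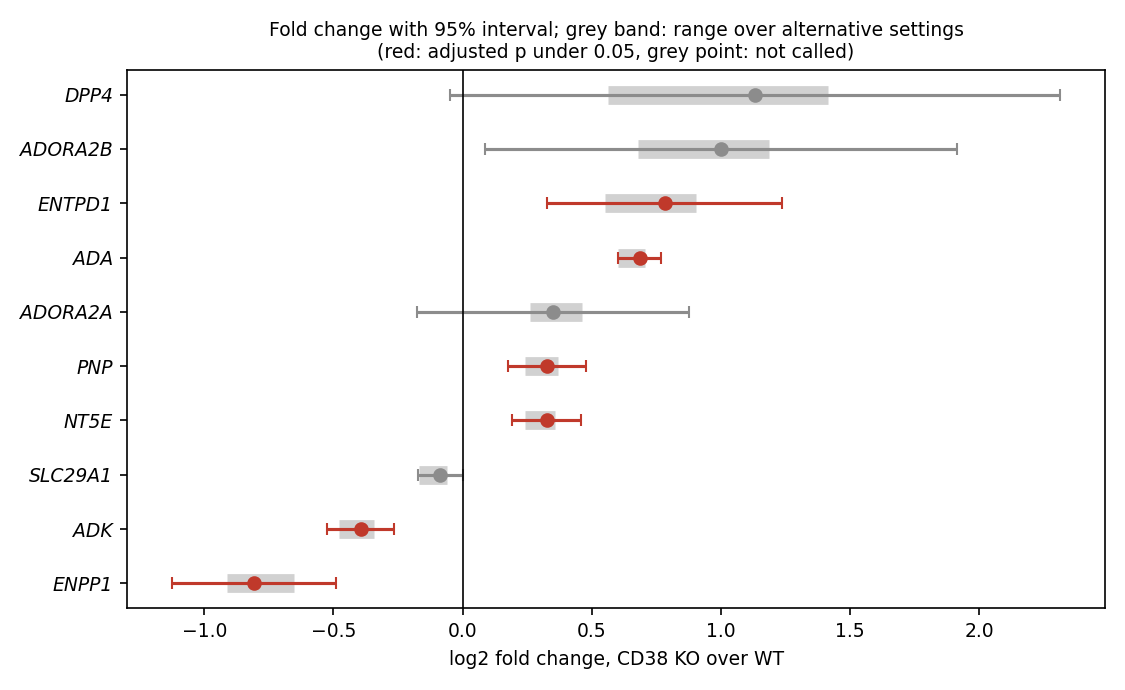
Log2 fold change of each member, CD38 KO over WT (horizontal axis), with its 95% interval derived from the edgeR test statistic, not adjusted for multiple tests. The grey band is the range over the alternative settings and red marks an adjusted p under 0.05. The unadjusted intervals of ADA, NT5E, PNP, ENTPD1 and ADORA2B lie above 0, though ADORA2B was not called after adjustment, and those of ENPP1 and ADK lie below 0. DPP4 and ADORA2B, both scarce, have the widest intervals.

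To compare levels between genes, CPM was divided by the summed exon length of each gene in GENCODE 29, an annotation that may differ from the one used for counting. On this scale ADA was the highest member in both groups, at 93.3 ± 2.17 CPM per kb in CD38 KO and 58.0 ± 1.07 in WT (SD, n = 3 each), with SLC29A1 next at 48.4 ± 1.80 in CD38 KO and 51.4 ± 1.81 in WT. Then came ADK at 11.2 ± 0.376 CPM per kb in CD38 KO and 14.7 ± 0.996 in WT, NT5E at 7.20 ± 0.0970 in CD38 KO and 5.75 ± 0.230 in WT, and PNP at 6.71 ± 0.362 in CD38 KO and 5.36 ± 0.292 in WT. The libraries of NT5E and PNP overlapped in WT, so their order there is not resolved. A wide step separated PNP from ENPP1, which was at 0.362 ± 0.0690 CPM per kb in CD38 KO and 0.635 ± 0.0648 in WT. ENPP1 was above ENTPD1 in every WT library, where ENTPD1 stood at 0.200 ± 0.0138 CPM per kb, whereas in CD38 KO the libraries of ENPP1 and ENTPD1 (0.344 ± 0.0887) overlapped. ADORA2A, at 0.286 ± 0.0211 CPM per kb in CD38 KO and 0.225 ± 0.0319 in WT, overlapped with ENTPD1 in both groups and with ENPP1 in CD38 KO. ADORA2B was at 0.184 ± 0.0663 CPM per kb in CD38 KO and 0.0918 ± 0.0137 in WT, and DPP4 was lowest at 0.0581 ± 0.0334 in CD38 KO and 0.0265 ± 0.0088 in WT. Among all tested genes on this scale, ADA stood at the 97.9th percentile in CD38 KO and the 96.1st in WT, and ENPP1 at the 23.7th in CD38 KO and the 32.8th in WT.

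**Figure D3:**
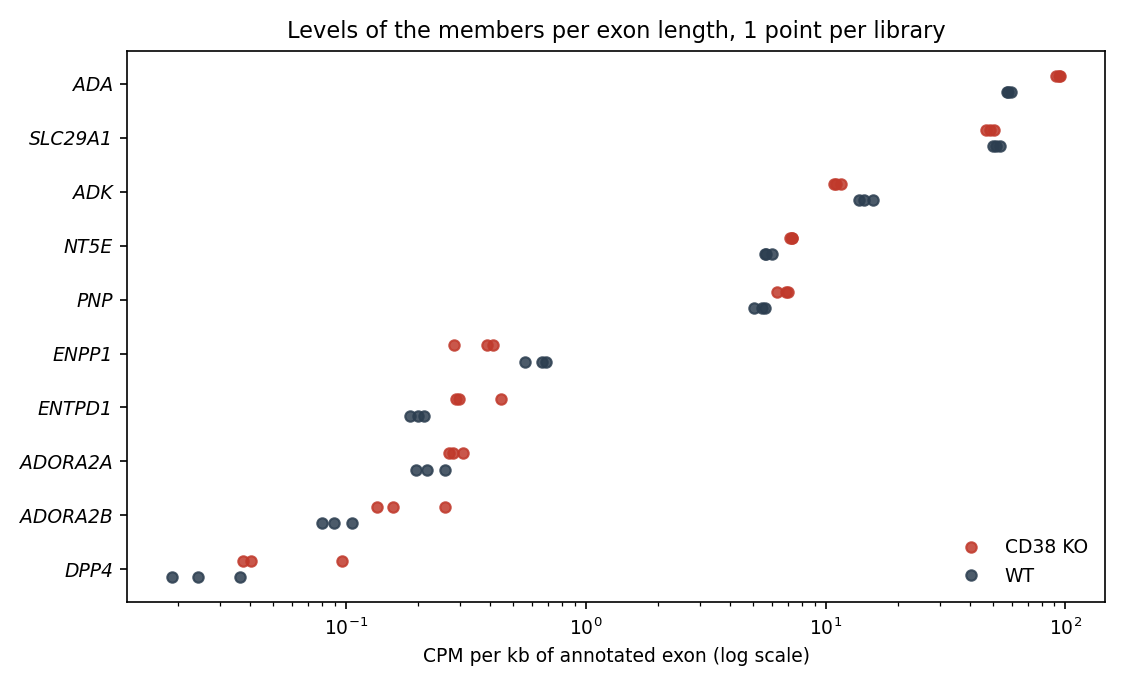
CPM per kb of annotated exon (horizontal log axis) for each member in the 3 CD38 KO libraries (red, upper) and the 3 WT libraries (dark, lower), 1 point per library. ADA and SLC29A1 lead in both groups, and the ENPP1 and ENTPD1 points mix in CD38 KO and are apart in WT.

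A ratio of counts within 1 library does not depend on how libraries are scaled. The ratios below were chosen after the values were seen and are given with no test. The ADA to ADK ratio was 7.03, 7.75 and 7.72 in the CD38 KO libraries, against 3.75, 3.36 and 3.54 in the WT libraries, so the balance of deaminase to kinase transcripts was 2.11 times as high in CD38 KO. The NT5E to ENPP1 ratio was 8.00, 8.28 and 11.6 in the CD38 KO libraries, against 4.58, 4.16 and 3.71 in the WT libraries. The ENTPD1 to ENPP1 ratio was 0.757, 0.532 and 0.714 in the CD38 KO libraries, against 0.266, 0.214 and 0.190 in the WT libraries, 2.99 times as high in CD38 KO. In each case the lowest CD38 KO ratio was above the highest WT ratio. This follows from the choice of pairs and is no further result. Each pair sets a member above WT in every CD38 KO library over a member below WT in every CD38 KO library. The ADA to ADA2 ratio, which sets the enzyme against the secreted deaminase, was 0.878 ± 0.0400 in CD38 KO and 0.660 ± 0.0317 in WT (SD, n = 3 each).

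**Figure D4:**
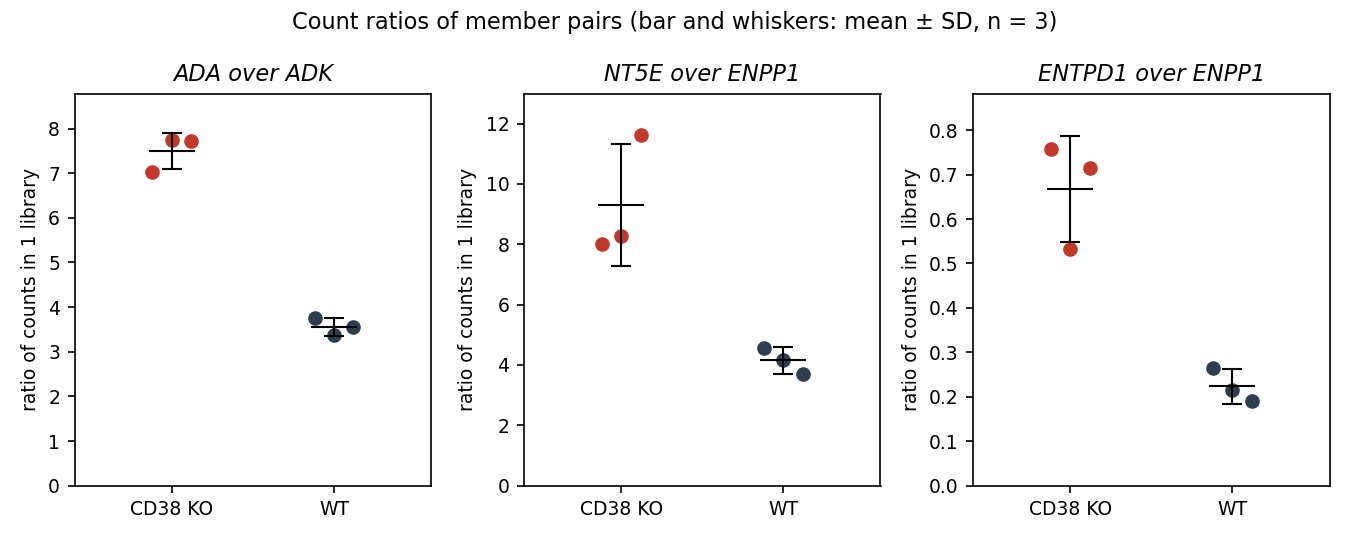
Ratio of the counts of a pair of members within each library (vertical axes, each from 0) for CD38 KO (red, left) and WT (dark, right), with bars for the mean and whiskers for the SD of 3 libraries. The CD38 KO ratios lie above the WT ratios for ADA over ADK, NT5E over ENPP1 and ENTPD1 over ENPP1. This follows from the choice of pairs, each a member that rose over a member that fell.

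A further 76 genes that surround the members in the pathway were read from the same fit, and 57 of them had enough counts to be tested. Of these, 17 rose and 20 fell, beside 22.8% and 21.6% of all tested genes, with a median log2 fold change of -0.080. With library size alone as the scaling, 11 of these genes were higher and 24 lower. Of the 9 other surface enzymes listed, only CD38 and ENPP2 were tested. The 7 that were not, among them BST1 and ENPP3, were at or under 0.252 CPM on average in both groups. ENPP2, which makes lysophosphatidic acid, was at 1.25 CPM in CD38 KO and 1.11 CPM in WT with an edgeR adjusted p of 0.661. The list is not complete. ENPP4, outside it and named after its values were seen, was at 24.4 CPM in CD38 KO and 19.5 CPM in WT (log2 fold change 0.32, edgeR adjusted p = 0.00169). CD38, the targeted gene and also the one whose staining was used for the sort, was lower, with a log2 fold change of -5.39 ± 0.134 (SE).

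Of the other receptors, ADORA1, which couples to inhibitory G proteins, was at 0.960 CPM in CD38 KO and 0.624 CPM in WT (edgeR adjusted p = 0.118), and ADORA3 was at 0.0268 CPM in CD38 KO and 0.0095 CPM in WT, under the floor of 3 counts in both. Of 6 other nucleoside transporters 3 were tested and only SLC28A2, a sodium-coupled purine nucleoside carrier, was called. Its counts were 5, 5 and 6 in CD38 KO and 14, 19 and 26 in WT. It thus passed the filter on low counts only through WT, the group where it was higher. Its log2 fold change was -1.72 ± 0.572 (SE; edgeR adjusted p = 0.0181). That call was lost in DESeq2 (adjusted p = 0.0561) and, in edgeR, without CD38 KO replicate 1 (adjusted p = 0.0533), WT replicate 2 (0.0551) or WT replicate 3 (0.121).

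Of 19 tested enzymes that make, use or salvage adenosine, inosine, AMP and IMP, 8 rose and 5 fell. Beside them, 22.8% of all tested genes were called higher and 21.6% lower. ADA2, the secreted adenosine deaminase, was at 303.3 ± 8.95 CPM in CD38 KO and 251.0 ± 9.22 CPM in WT (SD, n = 3 each), with a log2 fold change of 0.27 (edgeR adjusted p = 9.90e-06). NT5C2, a cytosolic nucleotidase of IMP and GMP, rose by a log2 fold change of 0.41. HPRT1, which salvages the hypoxanthine that PNP releases, was lower at -0.35, and GMPS, which makes GMP from XMP, at -0.37. Of the 3 tested genes of ATP and pyrophosphate export, the channel PANX1 and the exporter ANKH fell by 0.41 and 0.35 on the log2 scale, with 31.6 ± 1.65 and 48.6 ± 0.846 CPM in CD38 KO against 41.96 ± 1.43 and 61.9 ± 3.46 CPM in WT (SD, n = 3 each).

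Between the receptors and cAMP, 10 G protein and adenylyl cyclase genes were tested, of which 2 rose and 5 fell. The shares over all tested genes were 22.8% higher and 21.6% lower, so these counts are not read as particular to the list. The cyclase ADCY1, which calcium and calmodulin stimulate, was at 119.3 ± 8.56 CPM in CD38 KO and 189.6 ± 14.5 CPM in WT (SD, n = 3 each), with a log2 fold change of -0.67 (edgeR adjusted p = 6.93e-08). The inhibitory subunit GNAI1 and the cyclases ADCY6 and ADCY3 were lower at -0.56, -0.50 and -0.30. ADCY5, also called lower, passed the filter on low counts only through WT, where it was higher. It had 12, 3 and 8 counts in CD38 KO and 38, 32 and 24 in WT. GNAS, the stimulatory subunit, named after its values were seen, was at 1202 CPM in CD38 KO and 1104 CPM in WT.

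Beyond cAMP, 7 of 19 tested effectors and phosphodiesterases rose and 6 fell, beside 22.8% and 21.6% of all tested genes. PRKACB, a catalytic subunit of protein kinase A, had 1026, 751 and 1012 counts in CD38 KO and 2661, 2221 and 2434 in WT (log2 fold change -1.24, edgeR adjusted p = 4.22e-10). Another catalytic subunit, PRKACA, named after its values were seen, was not called, at 39.4 CPM in CD38 KO and 36.2 CPM in WT. The phosphodiesterase PDE3B fell by 1.12 on the log2 scale, while PDE4D, which hydrolyses cAMP specifically, had 705, 630 and 706 counts in CD38 KO and 282, 151 and 176 in WT (log2 fold change 1.91, edgeR adjusted p = 2.82e-09). CRTC3, a coactivator of CREB, rose by a log2 fold change of 0.87.

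**Figure D5:**
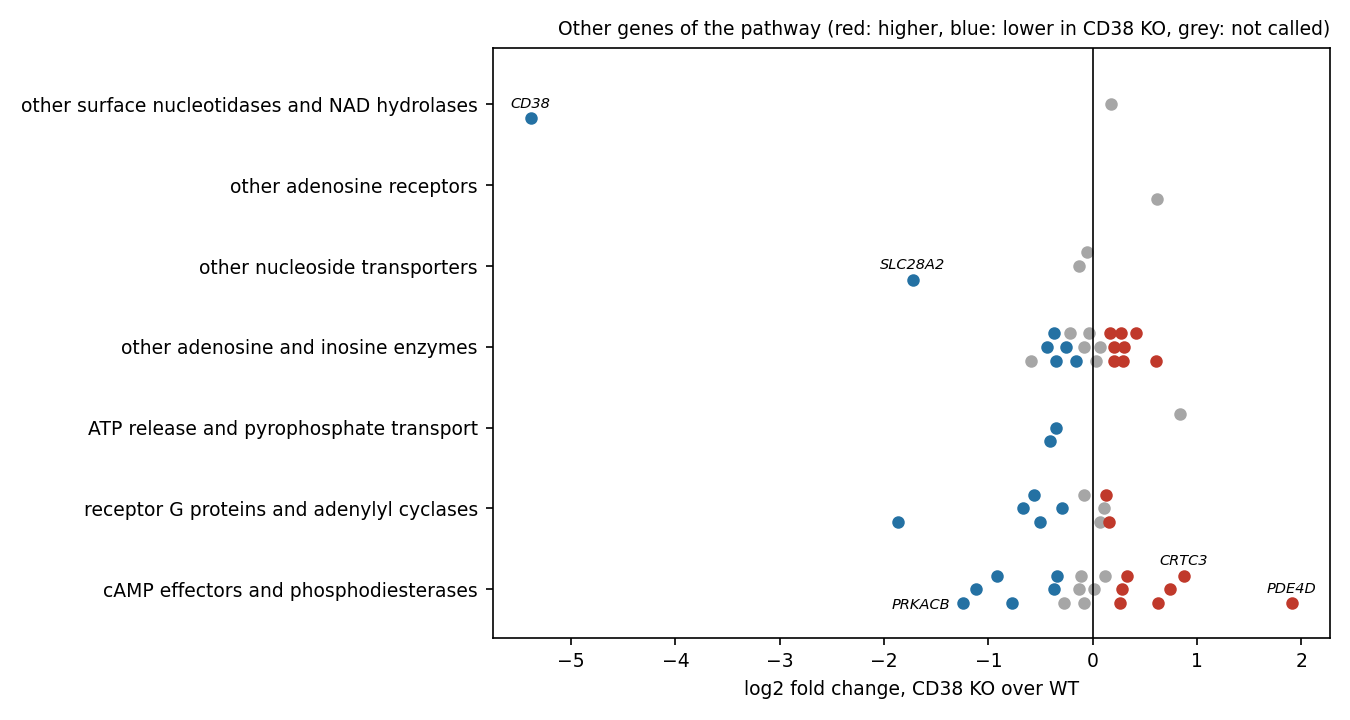
Log2 fold change, CD38 KO over WT (horizontal axis), of the 57 tested genes in each list of the surrounding pathway, 1 point per gene, red where higher, blue where lower and grey where the adjusted p was 0.05 or more. The cAMP effectors and phosphodiesterases spread to both sides, from PRKACB at -1.24 to PDE4D at 1.91, and CD38 stands far to the left.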

How the data were processed

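RNA from 3 CD38 KO and 3 WT libraries was sequenced. The values are raw counts per gene, deposited by the authors in 1 table. STAR 2.7.9a, Partek and DESeq2 appear in the submitters' processing notes, with no roles stated. No source used here states the genome build, annotation, counting program or strand setting. Of 60871 lines, 200 repeated an identifier with the same counts and were dropped.

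The groups were compared with edgeR 4.0.16 in R 4.3.3, using TMM factors, filterByExpr, robust glmQLFit, glmQLFTest and Benjamini-Hochberg adjustment over all genes tested. Replicates came from sorted populations of 1 clone and 1 line, so p-values measure the spread between these preparations, which may be technical. Floors and counting intervals cover counting error only. No pair of libraries agreed within sampling noise (lowest chi-square over its degrees of freedom 5.49). Coordinates, exon lengths and neighbours are from GENCODE 29, in which 98.6% of the tested genes had a chromosome.

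The members and lists were chosen with earlier results of these data known. Named genes are all members, CD38 and, of each surrounding list, up to 4 called genes with the smallest adjusted p. A gene outside this rule was named after its values were seen. Alternatives were other scalings, other filters, DESeq2 1.42.0, limma-voom (limma 3.58.1), a replicate block, protein-coding genes only, no mitochondrially encoded genes, each library left out and a test against a 2-fold change.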

Additional observations from a re-analysis of the deposited data

How the results depend on the processing

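With 3 libraries per group and 1 clone, some differences of scarce transcripts could not be resolved. Among them were log2 fold changes of 1.13 for DPP4 and 1.00 for ADORA2B. Under 16 alternatives, 6 or 7 members were called, against 6 in the reported fit, and 6 to 7 when 1 library was left out. Other pathway genes called numbered 33 to 38, against 37, and 33 to 37 when 1 library was left out. All genes called numbered 7630 to 9202, against 8934, and 7767 to 8761 when 1 library was left out. Against a 2-fold change, edgeR's glmTreat called 0 members, with 0 at an unadjusted p under 0.05, and 1061 genes in all. With library size alone 3632 genes were higher and 5570 lower, against 4592 and 4342, and the median log2 fold change of all genes was -0.083.

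Of 158 values of member fold changes under the alternatives, 154 kept their direction and side of the threshold, and the other 4, for ADORA2B and SLC29A1, are given with those genes. For the other named genes this held for 251 of 255, the exceptions being those of SLC28A2. No fold change of a named gene changed sign. DPP4, ADORA2B and SLC28A2 did not reach the filter at 1 CPM and have no value there. Same-numbered libraries of the groups share only a number: their deviations from the group means correlated at 0.0337, -0.00800 and -0.0207, and not every library correlated best with its own number. With the replicate block 6 members, 37 other pathway genes and 8918 genes in all were called.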
